A study of Mus musculus with 6 samples.

Results

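The 9 genes described here are 7 connexins (Gja1, Gjb6, Gjb2, Gjb1, Gjc1, Gjc3 and Gjd2) and 2 pannexins (Panx1 and Panx2), out of 22092 genes counted in polysomal RNA of mouse hippocampal astrocytes. They were chosen by name, and where a gene has several transcripts, that with the most reads in the 6 libraries combined stood for it. Of the 9, 8 were among the 13545 genes with enough reads to be tested, and Gjb1 was not. Several other genes of the 2 families are described as a group.

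RNA was taken by translating ribosome affinity purification (TRAP), in which a tagged ribosomal protein is pulled down together with the mRNAs it is bound to. All mice were 6 weeks old, carried the transgene tg:Aldh1L1-RPL10aGFP, which tags ribosomes in cells where the promoter of the astrocyte gene Aldh1l1 is active, and had floxed Cx43 alleles (Cx43 fl/fl), so the controls were not wild type at this locus. Libraries labelled Cx43FL came from littermates without Cre, and libraries labelled Cx43KO came from mice that also carried Gfap Cre, driven by the human GFAP promoter, with 3 libraries per genotype. Whole hippocampi were used, and how many mice went into a library was not given, so p-values measure the spread between these libraries. The question was how the genes of intercellular and membrane channels were represented on astrocyte ribosomes when the gene for Cx43 was targeted.

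Connexins assemble 6 at a time into a hemichannel, and hemichannels of neighbouring cells dock to form a gap junction channel that passes ions and small molecules. Astrocytes are coupled mainly through Cx43 (Gja1) and Cx30 (Gjb6), oligodendrocytes use Cx32 (Gjb1) and Cx29 (Gjc3) among others, and many coupled neurons use Cx36 (Gjd2). Pannexins resemble connexins in their membrane topology, not in sequence, and act mainly as channels of a single membrane that release ATP and other small molecules.

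The similarity of the connexins bears on every count, because a 50-base read must be placed on 1 gene. The stretch below is the 60-base window without gaps that was most alike in the aligned coding sequences of the 7 connexins, in GRCm38 transcripts of GENCODE M21, and it codes for part of the first extracellular loop, where hemichannels dock. Capitals mark the 26 of 60 bases that are identical in all 7.
Gja1: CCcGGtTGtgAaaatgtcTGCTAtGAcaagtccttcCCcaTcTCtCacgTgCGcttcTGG
Gjb6: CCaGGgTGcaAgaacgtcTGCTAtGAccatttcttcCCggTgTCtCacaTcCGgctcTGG
Gjb2: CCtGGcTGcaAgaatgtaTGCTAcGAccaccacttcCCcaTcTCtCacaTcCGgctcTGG
Gjb1: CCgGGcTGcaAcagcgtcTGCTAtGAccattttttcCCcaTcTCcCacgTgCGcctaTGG
Gjc1: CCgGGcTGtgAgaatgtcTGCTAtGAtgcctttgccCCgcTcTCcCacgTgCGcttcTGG
Gjc3: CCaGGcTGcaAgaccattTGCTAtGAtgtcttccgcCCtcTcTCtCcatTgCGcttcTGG
Gjd2: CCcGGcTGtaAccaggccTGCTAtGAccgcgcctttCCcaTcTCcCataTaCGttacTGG

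The window starts at coding base 175 in Gja1, 172 in Gjb6, Gjb2, Gjb1 and Gjc1, 205 in Gjc3 and 178 in Gjd2. The most similar pair over the whole coding sequence was Gjb6 and Gjb2, at 75.5% identity, and their longest shared run was 20 bases. Even in this pair the shared runs are shorter than a read. No 50-base stretch of the transcripts of Gja1, Gjb6, Gjb2, Gjb1, Panx1 or Panx2 occurred in a transcript of another gene. The exceptions were 2 of 2265 stretches in Gjc1, 8 of 2830 in Gjd2 and 89 of 3953 (2.25%) in Gjc3, the last shared with 589 other genes, and reads from such stretches were removed as multiply mapped where their alignments were also ambiguous.

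Total counts over the chosen transcripts ran from 14787315 to 15391191 in Cx43FL and from 16056348 to 34733477 in libraries labelled Cx43KO, so that 3 counts corresponded to 0.086 to 0.203 CPM, the count scaled to a common library size. CPM below are scaled by the trimmed mean of M-values (TMM), and fold changes are log2 of libraries labelled Cx43KO over Cx43FL from edgeR's quasi-likelihood test. Replicate 1 of the libraries labelled Cx43KO stood apart, at 123.4 on a first principal component holding 41.0% of the variance, with the other 5 between −50.7 and −0.41. The file numbers of the 2 genotypes fell in separate ranges, and the labels name no preparation batch. Libraries were pooled by 3 on 2 sequencing lanes, and which of them shared a lane was not given. A difference in preparation or lane that followed genotype could not be told apart from it. Summed CPM of 13 astrocyte markers were 37402 to 41069 in Cx43FL and 17603, 37349 and 53460 in replicates 1 to 3 labelled Cx43KO, and none of the 13 was at 0 in any library.

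Gja1, which encodes Cx43 and is the gene floxed in all mice, was measured first, since it is the gene that the labels name. The Cx43FL libraries held 91.9, 91.7 and 82.3 CPM of Gja1, and the libraries labelled Cx43KO held 87.2, 98.4 and 95.1. The genotypes overlapped, and no library labelled Cx43KO stood below all Cx43FL libraries. The log2 fold change was 0.08 (SE 0.28, 95% interval −0.54 to 0.70, edgeR adjusted p = 0.949), and the exact permutation test on 3 against 3 libraries gave p = 0.4, two-sided, where 0.1 is the smallest possible. The counts therefore did not show the loss that the label names, and directions below are between labels. Cre activity in the brain was tested by β-galactosidase in the study before mice were used, a check outside these files. The transcript lies on the plus strand of chromosome 10 from 56377330 to 56390415 (GRCm38) in 2 exons, with 189 bases in the first and 2882 in the second, which holds all 1146 coding bases. A count is a total over both exons and does not show which bases were read, so it does not by itself test the labels.

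Gjb6, which encodes Cx30, the other main astrocyte connexin, had the most reads of the 9 genes in every library, also per kilobase. It reached 455, 546 and 420 CPM in Cx43FL, against 192, 267 and 339 in libraries labelled Cx43KO, from 3091 to 10978 reads a library. Every library labelled Cx43KO lay below every Cx43FL library, with means of 473.6 ± 65.0 (SD, n = 3) for Cx43FL and 266.0 ± 73.5 (SD, n = 3) for Cx43KO. The log2 fold change was −0.83 (SE 0.29, 95% interval −1.48 to −0.19), a ratio of 0.562, with an edgeR p of 0.0163 before adjustment and 0.540 after it. The difference did not pass the test over all genes, and the exact permutation test gave p = 0.1, two-sided, the smallest that 3 against 3 allows. Without replicate 1 labelled Cx43KO the log2 fold change was −0.65. Gjb6 lies on the minus strand of chromosome 14 from 57123303 to 57133611, with its 783 coding bases in the last of 3 exons.

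Gjb6 was also lower in every library labelled Cx43KO under DESeq2 and upper-quartile scaling, with log2 fold changes of −0.84 and −0.88. When the libraries were scaled on the astrocyte markers instead, Gjb6 stood at 434, 513 and 364 CPM in Cx43FL and 388, 255 and 226 in libraries labelled Cx43KO, and the genotypes overlapped through replicate 1 labelled Cx43KO. That scaling moved log2 fold changes by a median of 0.38 over all genes. Values relative to this shift have the median taken off again and are not a separate check. The value for Gjb6 was −0.59 (edgeR adjusted p = 0.658), or −0.97 relative to the shift. Gja1 was at 0.44 on that scaling (edgeR adjusted p = 0.784), or 0.06 relative to the shift. Bulk libraries cannot tell fewer cells of a type from less RNA per cell.

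A second Gjb6 transcript of 887 bases had 56.6, 53.5 and 75.9 CPM in Cx43FL and 33.0, 41.8 and 39.9 in libraries labelled Cx43KO, also with all of the latter lower. Another, of 201 bases, overlapped between genotypes, at 3.56, 5.17 and 8.6 against 4.41, 5.35 and 2.32 CPM. Reads were counted on every transcript they overlapped, so transcripts of 1 gene are not independent measurements.

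Because Gja1 and Gjb6 are read from the same library, their ratio does not depend on scaling. Per kilobase of transcript, reads of Gjb6 exceeded those of Gja1 by 7.23, 8.69 and 7.44 times in Cx43FL and by 3.21, 3.96 and 5.20 times in libraries labelled Cx43KO. The ratio was lower in all 3 libraries labelled Cx43KO, with means of 7.78 ± 0.79 (SD, n = 3) and 4.12 ± 1.01 (SD, n = 3). The log2 ratios differed by −0.94, a ratio of 0.521, and leaving out 1 library at a time gave −1.12 to −0.77. The exact permutation test gave p = 0.1, two-sided, the smallest this test can give with 3 against 3 libraries. The plot of the ratio by library shows the gap between the genotypes.

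**Figure D1:**
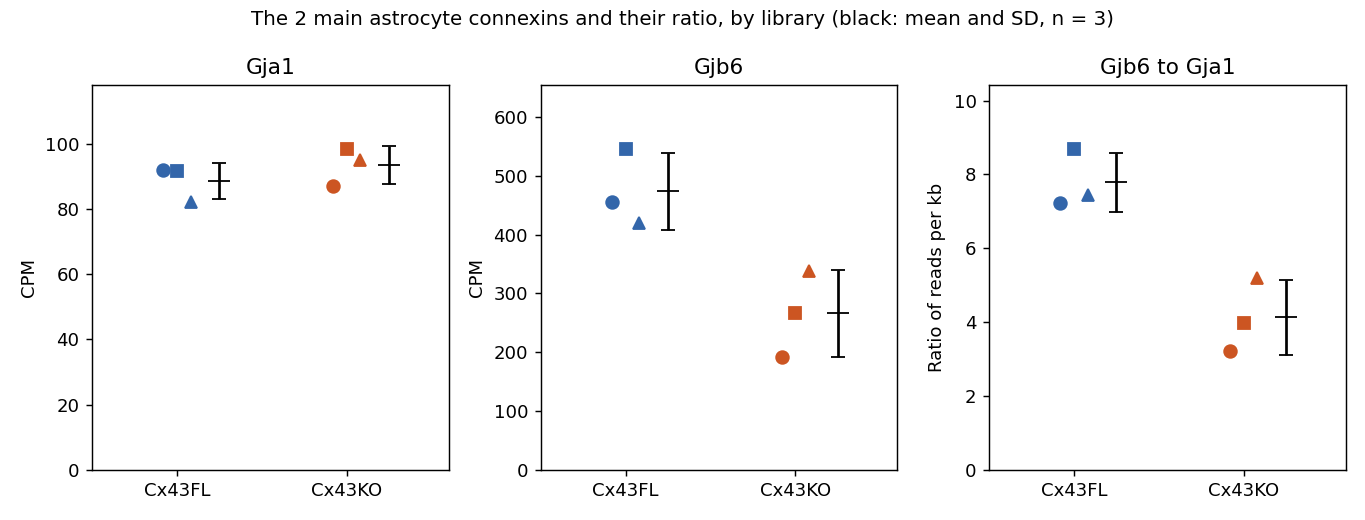
CPM of Gja1 (left) and Gjb6 (middle) and the ratio of Gjb6 to Gja1 reads per kilobase (right), with a point per library (circle, square and triangle for replicates 1, 2 and 3) and, in black, the mean and SD of 3 libraries. Gja1 overlaps between genotypes, and the ratio lies at 7.23 to 8.69 in Cx43FL and 3.21 to 5.20 in libraries labelled Cx43KO.

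As shares of the reads per kilobase of all 9 genes, Gjb6 held 75.6, 78.3 and 76.8% in Cx43FL and 50.6, 64.7 and 72.3% in libraries labelled Cx43KO. Gja1 held 10.46, 9.01 and 10.3% against 15.8, 16.3 and 13.9%, higher in every library labelled Cx43KO by 5.39 percentage points on average (exact permutation p = 0.1, two-sided). Since shares sum to the whole, the higher share of Gja1 goes with the lower share of Gjb6, and its CPM overlapped. The plot of shares shows that in replicate 1 labelled Cx43KO the part held by neither Gjb6 nor Gja1 was mostly Gjc3.

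**Figure D2:**
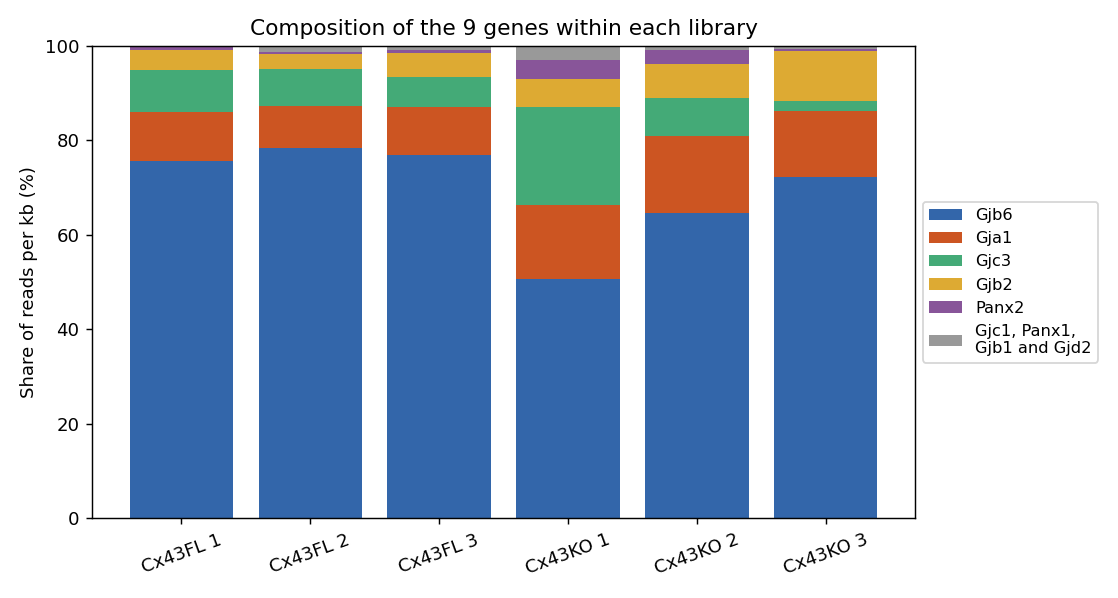
Share (%) of each gene in the reads per kilobase of the 9 genes, 1 bar per library. Gjb6 holds 75.6 to 78.3% in Cx43FL and 50.6 to 72.3% in libraries labelled Cx43KO, and Gjc3 reaches 20.7% in replicate 1 labelled Cx43KO.

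Gjb2 encodes Cx26, a connexin of some astrocytes and of the cells of the meninges. It had 28.7, 24.8 and 32.6 CPM in Cx43FL and 25.8, 34.2 and 57.5 in libraries labelled Cx43KO. The genotypes overlapped at replicate 1 labelled Cx43KO, and the log2 fold change was 0.45 (SE 0.43, 95% interval −0.49 to 1.39, edgeR adjusted p = 0.759). Scaled on astrocyte markers, all 3 libraries labelled Cx43KO were higher, at 52.2, 32.6 and 38.3 against 27.4, 23.3 and 28.3 CPM, and the log2 fold change was 0.64, or 0.26 relative to the shift of all genes. Its ratio to Gjb6 per kilobase was 0.055, 0.040 and 0.068 in Cx43FL and 0.117, 0.112 and 0.148 in libraries labelled Cx43KO, higher in all of the latter, with Gjb6 itself lower there. Its ratio to Gja1 per kilobase overlapped, at 0.399, 0.345 and 0.505 against 0.377, 0.443 and 0.772. Gjb2 lies beside Gjb6 on chromosome 14, from 57098600 to 57104702 on the minus strand. Meningeal fibroblast markers, summed over 5 genes, were 17.8 to 42.7 CPM in Cx43FL and 24.7 to 66.2 in libraries labelled Cx43KO, and their part in the Gjb2 values was not tested.

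Among the oligodendrocyte connexins, Gjc3 (Cx29, found on myelin; chromosome 5, 137953461 to 137963098, minus strand) alone was at levels near those of Gja1. It had 102, 103 and 64.6 CPM in Cx43FL and 149.5, 62.5 and 18.7 in libraries labelled Cx43KO. Both the highest and the lowest value came from libraries labelled Cx43KO, and the log2 fold change was −0.23 (SE 0.58, 95% interval −1.51 to 1.05, edgeR adjusted p = 0.923). It was −1.15 without replicate 1 labelled Cx43KO and 0.23 without replicate 3, and 0.58 under astrocyte marker scaling, or 0.20 relative to the shift, so no direction held. Summed CPM of 12 oligodendrocyte markers were 647, 1070 and 688 in Cx43FL and 2395, 1064 and 626 in libraries labelled Cx43KO, and the highest and lowest sums fell in the same libraries as those of Gjc3. The part of oligodendrocyte RNA in Gjc3 was not tested.

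Gjb1 encodes Cx32, and its chosen transcript lies on the plus strand of chromosome X from 101383736 to 101385629. It had 9, 2 and 3 reads in Cx43FL and 109, 3 and 6 in libraries labelled Cx43KO. Replicate 1 labelled Cx43KO, which also had the highest oligodendrocyte marker sum, stood alone at 6.77 CPM, and the other 5 libraries were at 0.121 to 0.593. Gjb1 did not pass the filter on low counts and was not tested.

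Gjc1 encodes Cx45, known from vascular smooth muscle, pericytes and some neurons. Its chosen transcript lies on the minus strand of chromosome 11 from 102799579 to 102804901. It had 8, 95 and 45 reads in Cx43FL and 8, 7 and 62 in libraries labelled Cx43KO, or 0.527, 6.30 and 2.93 against 0.497, 0.281 and 1.91 CPM. The values overlapped and spread over more than a factor of 10 within Cx43FL. The log2 fold change was −1.84 with an SE of 1.30 (95% interval −4.71 to 1.03, edgeR adjusted p = 0.681). Markers of mural cells, summed over 6 genes, were 26.9 to 35.4 CPM in Cx43FL and 31.1 to 88.5 in libraries labelled Cx43KO, with Kcnj8 at 0 throughout.

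Gjd2, which encodes Cx36 of electrical synapses (chromosome 2, 114009601 to 114013619, minus strand), had 8, 10 and 27 reads in Cx43FL and 13, 11 and 35 in libraries labelled Cx43KO. It was at 0.442 to 1.76 CPM, and the genotypes overlapped. The log2 fold change was −0.34 (SE 1.23, 95% interval −3.04 to 2.37, edgeR adjusted p = 0.950), and it turned to 0.38 without Cx43FL replicate 3. Under astrocyte marker scaling it was 0.03, or −0.35 relative to the shift. Summed CPM of 11 neuronal markers were 2103 to 2823 in Cx43FL and 2904 to 7453 in libraries labelled Cx43KO, without overlap. All 11 had a positive log2 fold change. Of single markers, Rbfox3, Gad2 and Camk2a were higher in every library labelled Cx43KO, and the others of the list overlapped.

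Panx2, the pannexin known mainly from neurons, had 5.27, 4.71 and 5.28 CPM in Cx43FL and 24.1, 19.2 and 2.44 in libraries labelled Cx43KO. Of the latter, replicates 1 and 2 lay above all Cx43FL libraries and replicate 3 lay below all of them. The log2 fold change was 1.58 (SE 0.81, 95% interval −0.21 to 3.38), with an edgeR p of 0.0783 before adjustment and 0.609 after it. It was 2.09 without replicate 3 labelled Cx43KO (edgeR adjusted p = 0.238) and 1.08 without replicate 1. On astrocyte marker scaling it was 2.29 (edgeR adjusted p = 0.645), or 1.91 relative to the shift. The second Panx2 transcript had 2.24, 1.39 and 3.97 against 8.75, 3.46 and 1.88 CPM. Neuronal marker sums of replicates 1 to 3 labelled Cx43KO were 7453, 2904 and 4261 CPM, and replicate 2, second for Panx2, had the lowest of these. The part of neuronal RNA in the Panx2 values was not tested. The chosen Panx2 transcript lies on the plus strand of chromosome 15 from 89059747 to 89070907.

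Panx1, which forms ATP-releasing channels in many cell types (chromosome 9, 15002128 to 15045478, minus strand), had 10, 123 and 12 reads in Cx43FL and 61, 219 and 44 in libraries labelled Cx43KO. Replicate 2 was highest in both genotypes, at 8.16 and 8.80 CPM, and the other 4 libraries were at 0.659 to 3.79. The log2 fold change was 0.54 (SE 1.21, 95% interval −2.13 to 3.20, edgeR adjusted p = 0.911). It turned to −0.32 without replicate 2 labelled Cx43KO and was 2.67 without Cx43FL replicate 2. A Panx1 transcript annotated as a target of nonsense-mediated decay, which shares sequence with the chosen one, had 0.659, 8.16 and 0.651 CPM in Cx43FL and 1.86, 8.52 and 1.36 in libraries labelled Cx43KO.

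Of the 8 genes tested, edgeR called 0 at an adjusted p under 0.05, against 0.00738% of all genes called higher and 0.0% called lower in libraries labelled Cx43KO. DESeq2 also called 0 of them, against 0.824% higher and 0.124% lower with its prior on fold changes, and 1.01% and 0.188% without it. Before adjustment 1 of the 8 (Gjb6) passed as lower, against 2.64% of all genes lower and 5.63% higher. Complete separation was seen in 1 of 8, with Gjb6 lower, against 7.45% of all genes lower and 8.08% higher. The 8 log2 fold changes were positive in 4 and had a median of −0.08, and the median over all genes tested was 0.07.

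**Figure D3:**
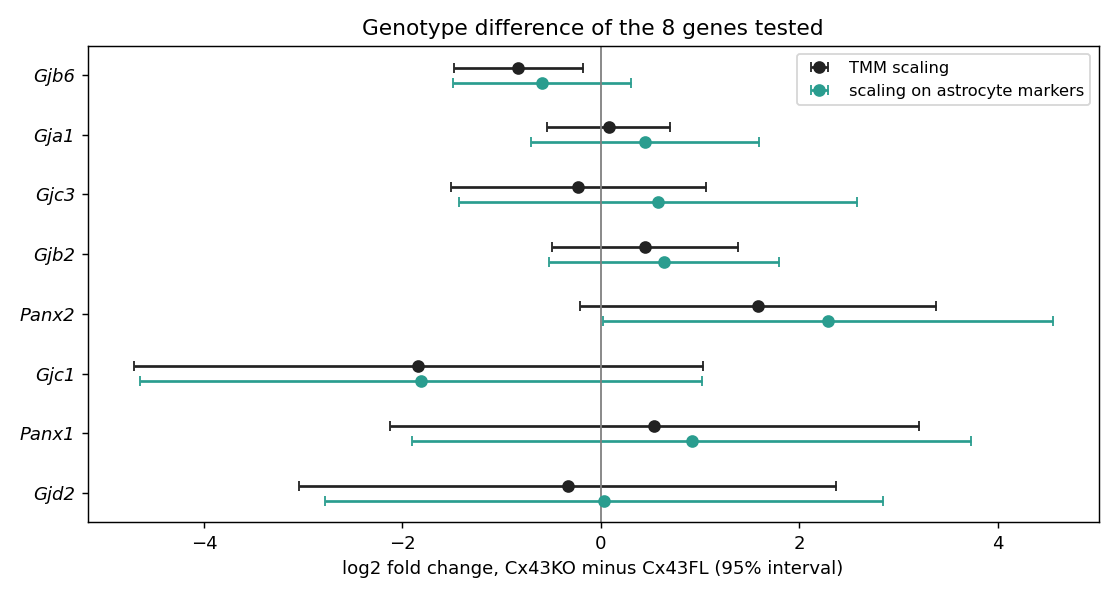
Log2 fold change of libraries labelled Cx43KO over Cx43FL for the 8 genes tested, with 95% intervals from edgeR, under TMM scaling (black) and scaling on astrocyte markers (green). Under TMM the interval of Gjb6, −1.48 to −0.19, lies below 0 and the other 7 include 0, and on astrocyte markers Gjb6 includes 0 and Panx2, at 0.02 to 4.55, does not.

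Levels were compared between genes per kilobase of transcript over all 6 libraries. The RNA was amplified before library preparation, and the evenness of coverage along transcripts was not examined. Gja1 was counted on 1 of the 8 transcripts annotated for it in GENCODE M21. The order and ranks below are therefore of reads per kilobase and not of measured numbers of mRNA molecules. By the mean of log2 CPM per kilobase with a pseudocount of 0.1, the order was Gjb6, Gja1, Gjc3, Gjb2, Panx2, Gjc1, Panx1, Gjb1 and Gjd2. By the mean on the linear scale, Gjb1 (0.841 CPM per kilobase) stood above Panx1 (0.685). In CPM per kilobase, Gjb6 had means of 225 in Cx43FL and 126 in libraries labelled Cx43KO, which placed it 298th and 496th of 13545 genes, and Gja1 had 28.9 and 30.5, which placed it 2755th and 2646th. Gjb6 exceeded Gja1 in 6 of 6 libraries by a mean of 2.48 on the log2 scale (SD 0.57), and Gjb2 exceeded Panx2 in 6 of 6 by 2.58 (SD 1.5). These were the only neighbouring pairs in the same order in every library, and each had an exact sign-flip p of 0.031, the smallest possible, and 0.125 adjusted over 8 pairs. The other neighbours did not differ beyond their spread: Gja1 and Gjc3 by 0.75 (SD 1.07), Gjc3 and Gjb2 by 0.38 (SD 1.47), and Panx2 and Gjc1 by 1.79 (SD 2.44). The order of Gjc1, Panx1, Gjb1 and Gjd2 rested on differences of at most 0.55 with SDs of at least 1.90. The plot of levels shows the lower 4 genes spread over the same range.

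**Figure D4:**
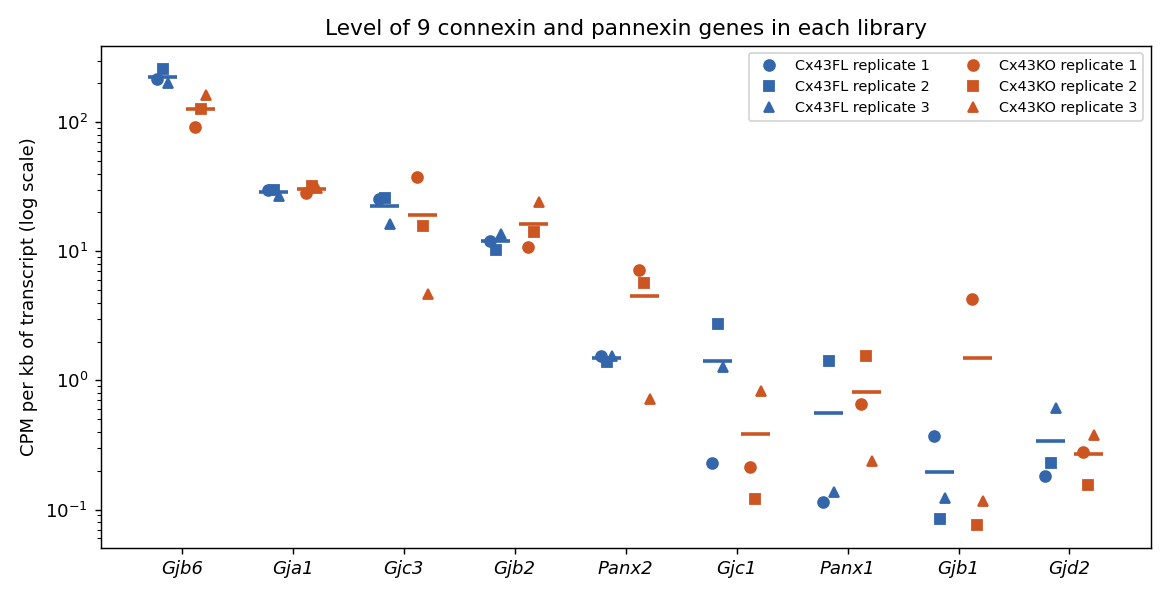
CPM per kilobase of transcript (log axis) of the 9 genes, with a point for each of the 6 libraries and a line at each genotype's mean. Gjb6 sits highest in every library, at 199 to 259 in Cx43FL and 91.2 to 161 in libraries labelled Cx43KO, while the genotypes overlap for the other 8 genes.

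Among other family genes, Gja3, Gja5, Gjb5, Gjd3, Gjd4, Gje1 and Panx3 had no read in any library. A count of 0 allows a level of up to 0.086 to 0.203 CPM. Gja4 (Cx37), known from endothelium, had 120 reads (3.70 CPM) in replicate 3 labelled Cx43KO and 0 in the other 5 libraries. The 7 endothelial markers summed to 8.40 CPM in that library, against 12.6 and 5.35 in the other 2 libraries labelled Cx43KO and 2.61 to 8.30 in Cx43FL. Highest of the 7 in replicate 3 labelled Cx43KO were Cdh5, Esam and Cldn5, at 3.12, 2.66 and 2.16 CPM. Tie1 and Tek were at 0 there and in the other 2 libraries labelled Cx43KO. Gja6 and Gja10 had at most 1 read in a library.

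The genes whose CPM over the 6 libraries were most like those of Gjb6 were sought among 9795 genes, by the root mean square difference of log2 values around each gene's own mean. For Gjb6 they were Adh5 (0.074), Ostc (0.081) and Sub1 (0.086). For Gja1 they were Pex7 (0.064), Rbm8a (0.064) and Pa2g4 (0.066), and for Gjc3 the closest, Actn4, stood at 0.171. Gja1 varied little between libraries, so other genes that vary little lie close to it by this measure. Pearson correlations with Gja1 were 0.867 for Pex7, 0.633 for Rbm8a and 0.896 for Pa2g4. With Gjb6 they were 0.991 for Adh5, 0.987 for Ostc and 0.986 for Sub1. Adh5, the closest to Gjb6, had 193, 233 and 165.5 CPM in Cx43FL and 88.8, 112 and 136 in libraries labelled Cx43KO.

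Proteins that bind connexins or act on their phosphorylation, trafficking and scaffolding made up a list of 26 genes, all tested. By edgeR, 0 of the 26 passed after adjustment, and before it 2 were higher and 0 lower, against 5.63% and 2.64% of all genes. The median log2 fold change was 0.34, with 17 of 26 positive, and over all genes it was 0.07, with 7366 of 13545 positive. Dbn1 (drebrin, an actin-binding protein that holds Cx43 at the cell surface and is abundant in neurons) had 9.16, 4.44 and 8.08 CPM in Cx43FL and 39.0, 18.8 and 13.0 in libraries labelled Cx43KO, all higher (log2 fold change 1.71, SE 0.61, edgeR adjusted p = 0.540). Mapk7, the kinase ERK5 that phosphorylates Cx43, had 4.02, 5.31 and 10.03 against 26.6, 17.6 and 15.2 CPM (1.61, SE 0.61, edgeR adjusted p = 0.553). Cttn (cortactin) was lower in all 3, at 58.4, 51.7 and 34.1 against 19.7, 29.4 and 29.6 CPM (−0.87, SE 0.40, edgeR adjusted p = 0.600). In all, 6 of the 26 had every library labelled Cx43KO above every Cx43FL library and 1 had every one below, against 8.08% and 7.45% of all genes. Neuronal marker sums, though not every single marker, were also higher in all 3 libraries labelled Cx43KO, and their part in the Dbn1 values was not tested.

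A list of 12 genes of ATP release and purinergic signalling, the route on which pannexin channels act, had 9 genes tested, while P2ry2, Calhm1 and Slc17a9 had too few reads. By edgeR, 0 of the 9 passed before or after adjustment, where 5.63% of all genes were higher and 2.64% lower before it. Of the log2 fold changes, 7 of 9 were positive with a median of 0.60, against 7366 of 13545 and 0.07 over all genes. P2rx4, an ATP-gated ion channel, had 3.56, 3.85 and 4.23 CPM in Cx43FL and 8.07, 2.85 and 27.0 in libraries labelled Cx43KO, with overlap (1.70, SE 0.87, edgeR adjusted p = 0.609). Nt5e, the ectoenzyme that makes adenosine from AMP, had 3.23, 0.663 and 0.912 against 0.310, 0.121 and 0.340 CPM, lower in all 3 (−2.61, SE 1.34, edgeR adjusted p = 0.609). These levels were low, and 3 counts corresponded to 0.125 CPM in replicate 2 labelled Cx43KO. Lrrc8a, the required subunit of volume-regulated anion channels, had 90.1, 162 and 128 against 130.5, 287 and 186 CPM, with overlap (0.67, SE 0.36, edgeR adjusted p = 0.609). Microglial marker sums, over 8 genes that include purinergic P2ry12, were 27.7 to 49.5 CPM in Cx43FL and 77.1 to 124 in libraries labelled Cx43KO, and their part in the P2rx4 values was not tested.

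Besides the neuronal and microglial sums, the marker sum of 1 other cell type differed between labels without overlap. The 8 markers of ependymal and choroid plexus cells summed to 9729, 474 and 15052 CPM in Cx43FL and 32561, 25972 and 21809 in libraries labelled Cx43KO, nearly all of it Ttr, the transthyretin of choroid plexus. This sum was higher in every library labelled Cx43KO, while oligodendrocyte precursor sums (194 to 258 against 191 to 340.4 CPM) and those of the other types outside these 3 overlapped. The part of these cells in the values of Gja1 and Gjb2, which ependymal and meningeal cells also express, was not tested.

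**Figure D5:**
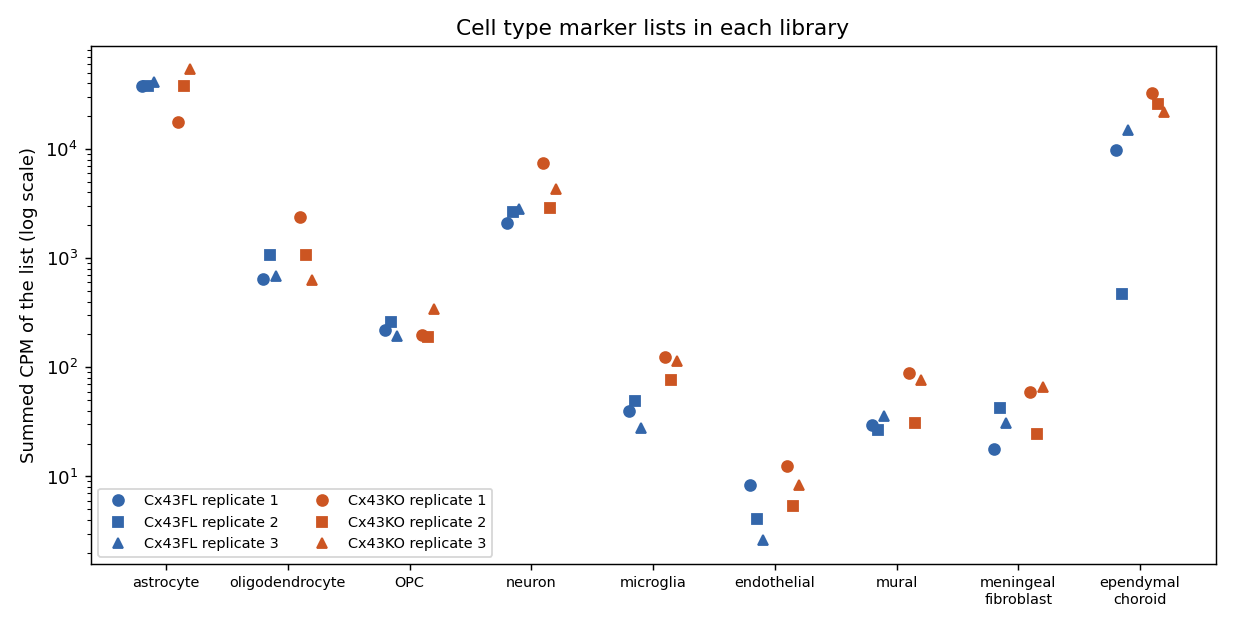
Summed CPM (log axis) of marker lists of 9 cell types (OPC, oligodendrocyte precursors), with a point for each library. Neuronal, microglial and ependymal or choroid sums are higher in all 3 libraries labelled Cx43KO, and the astrocyte sum spans 17603 to 53460 CPM across these libraries.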

How the data were processed

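Polysomal RNA of hippocampal astrocytes was sequenced in 6 libraries, 3 per genotype. The authors removed short and low-quality reads, aligned the rest with STAR to mm10 with Ensembl annotation, removed multiply mapped reads and deposited raw read counts per transcript from HTSeq-count (0.5.3, after bcl2fastq 1.8.4, per the labels). Counts were used as deposited. Groups came from the labels.

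Of 75466 transcripts, 73164 were matched to a gene symbol and 2302, with 1.60 to 1.78% of counts, were left out. A gene's most-read transcript, over all libraries together, stood for the gene. Fits used edgeR 4.0.16 in R 4.3.3 (TMM, its filter on low expression, quasi-likelihood test with Benjamini-Hochberg adjustment over 13545 genes, 2 groups). A gene was called at an adjusted p under 0.05 and a mean normalized count above 50. Single values were compared by exact permutation. The biological coefficient of variation was 0.600, and no 2 libraries agreed within sampling noise. Limits from counts cover counting error only. Alternatives included DESeq2 1.42.0, other scalings and filters, summed transcripts, other representative transcripts and leaving out each library.

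Sequences were GENCODE M21 transcripts (GRCm38), aligned with MAFFT 7.526. Scripts were tested on simulated data. The 9 genes, the gene lists and the marker lists were chosen with earlier results of these data known. Beyond the 9, the text names the 3 genes of each list with the lowest p and the 3 most alike in profile to each of the 3 members at the highest level. Cdh5, Esam, Cldn5, Tie1, Tek, Ttr, Kcnj8, P2ry12, Rbfox3, Gad2 and Camk2a were named after their values were seen. Some genes of the connexin family are not reported here.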

Additional observations from a re-analysis of the deposited data

How the results depend on the processing

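Across all genes, edgeR called 1 higher and 0 lower; the number higher was 0 under astrocyte marker scaling, 0 with at least 10 counts in every library, 0 with transcripts summed, and 0 to 11 when 1 library was left out. DESeq2 called 113 higher and 17 lower with its prior, and 145 and 27 without it, and an unadjusted p gave 763 and 358. None of the 9 genes was called under any of these except at an unadjusted p, which called 1 (Gjb6, lower). Under astrocyte marker scaling, an alternative to TMM, the log2 fold changes of Gjc3 and Gjd2 turned to 0.58 and 0.034. That scaling was examined for separation after the data were seen. Under it, 0 of the 9 genes had every library labelled Cx43KO lower, and 1 (Gjb2) had every one higher. The share of all genes separated in this way was not counted under that scaling, which moved log2 fold changes by a median of 0.38 over all genes.

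With 1 library left out, log2 fold changes ran from −1.04 to −0.65 for Gjb6, 0.03 to 0.12 for Gja1, 0.06 to 0.67 for Gjb2, −1.15 to 0.23 for Gjc3, −0.66 to 0.38 for Gjd2, −3.05 to −0.95 for Gjc1, −0.32 to 2.67 for Panx1 and 1.08 to 2.09 for Panx2. The causes were not tested. Libraries with the same number did not deviate together (correlations of their deviations 0.01, −0.004 and −0.05), and the main fit did not pair them. Such correlations cannot show whether libraries shared a litter or a batch. A fit with the replicate number as a block gave −0.86 for Gjb6 and called 2 genes higher and 0 lower. Gjc1 and Gjd2 had too few reads for the 10-count filter, and Gjc1 for the longest transcript. Reads per library were at most 95 for Gjc1, 35 for Gjd2, 109 for Gjb1 and 219 for Panx1.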
